A study of Mus musculus with 72 samples.

Results

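Mouse early secondary ovarian follicles were kept in culture for 24 h without follicle-stimulating hormone (FSH), and their transcriptome is described here from the 6 untreated libraries of 18 in the series. The members were chosen by label, as the libraries whose names mark no treatment, numbered 1 to 6. The other libraries came from follicles given the hypoglycosylated FSH form FSH21 or the fully glycosylated form FSH24, each at 1 or 10 ng/ml, and the only fit they enter is 1 alternative. Untreated numbers 1, 5 and 6 carry the numbers of the 1 ng/ml libraries and numbers 2, 3 and 4 those of the 10 ng/ml libraries, so the untreated libraries form a set of 1, 5 and 6 and a set of 2, 3 and 4. Every library shared the culture conditions: α-MEM GlutaMAX with fetuin (1 mg/ml), albumin (3 mg/ml) and insulin-transferrin-selenium (0.1%), at 37 C under 5% CO2. Strain, genotype, age, and the animals and follicles behind a library are not given in the sources used here. They are labelled biological replicates, but no animal or culture is named for any of them. The p-values therefore measure only how far these libraries spread, which may be partly technical.

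A secondary follicle holds a growing oocyte within layers of granulosa cells, a basement membrane around them, and the first theca cells recruited from the stroma outside it. The growing oocyte lays down its zona pellucida, stores RNA and protein for the embryo and signals to granulosa cells through GDF9 and BMP15. Granulosa cells couple to the oocyte through gap junctions and make anti-Müllerian hormone and inhibin.

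Library totals ran from 20.8 to 22.3 M counts (M, mega), and 24123 to 25460 genes had a count in a library. Levels are counts scaled to the TMM-adjusted library totals (CPM), and levels of different genes are compared as CPM per kilobase (kb) of annotated exon unless a ranking is said to be by CPM. Pearson's r of log2 CPM across genes, which are not independent replicates, was 0.978 to 0.984 for the 6 pairs of libraries within a set and 0.978 to 0.985 for the 9 pairs between sets. A mean of at least 1 CPM was reached by 15255 genes, 10 CPM by 10708, 100 CPM by 2675 and 1000 CPM by 50.

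Transcripts of the oocyte lists were abundant and mostly close in level between libraries. The 6 oocyte lists hold 101 genes, of which 97 averaged at least 1 CPM, 91 at least 10 CPM and 58 at least 100 CPM. Together they took 2.43 ± 0.161% of the counts (SD, n = 6). The lists include genes that other cells also use, such as Dnmt1 at 1871 CPM and Uhrf1 at 539 CPM, so this share is not the oocyte's alone. Gdf9 (chr11:53431023-53437904, mm10), the growth factor that drives granulosa cells, measured 962, 1227, 1097, 1150, 1075 and 1093 CPM in numbers 1 to 6. Number 1 was its lowest and number 2 its highest library. Bmp15, the X-linked partner of GDF9, measured 463, 513, 445, 415, 441 and 400.5 CPM. Per length Gdf9 was the higher in every library, at 542 ± 43.2 CPM per kb against 146 ± 12.9 for Bmp15 (SD, n = 6). Kit, the oocyte's receptor for the KIT ligand of granulosa cells, ranged from 149 to 186 CPM, and Fgf8, another oocyte growth factor, averaged 11.7 CPM.

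All 3 zona pellucida glycoproteins of the mouse, which build the egg coat, were expressed. Zp2 measured 721, 950.2, 993, 956, 895 and 843 CPM in numbers 1 to 6. Zp3 measured 474, 655, 672, 629, 622 and 567 CPM, and Zp1, the cross-linking component, 308, 402, 392, 407, 390.5 and 359 CPM. Number 1 was the lowest library for each of them. Per length Zp3 stood at 456 ± 55.1, Zp2 at 328 ± 36.4 and Zp1 at 190 ± 18.9 CPM per kb (SD, n = 6), and every library of Zp1 lay below every library of the other two. Zp3r, a gene of sperm, averaged 0.234 CPM.

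FIGLA, an oocyte transcription factor known to activate zona genes, binds E-boxes (CANNTG, the same on both strands). The Zp3 promoter is shown because zona genes were high while Figla was low. It is printed 5′ to 3′ from 250 bases before the RefSeq start, without the last 20 bases before it (GRCm38.p6, chr5:135979855-135980084, plus strand), with each CANNTG in capitals.
Zp3: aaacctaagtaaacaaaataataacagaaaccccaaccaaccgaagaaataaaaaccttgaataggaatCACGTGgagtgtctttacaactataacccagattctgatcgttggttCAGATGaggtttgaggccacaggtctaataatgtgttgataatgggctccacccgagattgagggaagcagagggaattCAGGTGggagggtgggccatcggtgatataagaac
The matches begin 181, 134 and 55 bases before the start. The string is common, being held by 66.0% of 27025 RefSeq windows of 250 bases before a start, and a match shows no binding. Figla itself measured 4.46, 6.09, 6.47, 5.22, 5.01 and 4.42 CPM in numbers 1 to 6, or 6.31 ± 1.01 CPM per kb (SD, n = 6). Every library of Figla lay below every library of Lhx8, a LIM homeobox factor at 18.4 ± 1.52 CPM per kb, and Nobox, a homeobox factor of growing oocytes, stood at 91.1 ± 8.29 (SD, n = 6). Sohlh1 and Sohlh2, factors of the earliest oocyte stages, averaged 2.25 and 1.04 CPM.

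The subcortical maternal complex, an oocyte assembly needed for early cleavage, held the highest oocyte gene per length. Zbed3, a member of the complex, measured 2024, 2395, 2295, 2185, 2495 and 2295 CPM in numbers 1 to 6, and at 1023 ± 73.5 CPM per kb it was the one oocyte list gene among the 25 highest of all genes per length. Padi6, a component of the cytoplasmic lattices, measured 975, 1278, 1292, 1238, 1238 and 1109 CPM. Number 1 was again the lowest library for both. Tle6 averaged 583 ± 66.5 CPM, Nlrp5 (MATER) 541 ± 60.5, Khdc3 182 ± 21.4 and Ooep 170.2 ± 18.5, all members of the complex (SD, n = 6). Nlrp14, a maternal-effect gene, averaged 1053 ± 113 CPM, and the NLRP family of 17 genes summed to 2374 to 3032 CPM.

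Among maternal-effect genes, Dnmt1, the maintenance DNA methyltransferase, averaged 1871 ± 134 CPM and Uhrf1, its recruiting partner, 539 ± 34.0 (SD, n = 6). Both are also used by dividing somatic cells, so their share from the oocyte cannot be read here. H1f8, the oocyte linker histone, averaged 359.9 ± 42.7 CPM, Zar1, a regulator of maternal RNA, 292 ± 19.2 and Npm2, an oocyte nuclear chaperone, 261 ± 30.1 (SD, n = 6). Dnmt3l, the cofactor of imprint setting, averaged 23.2 CPM, and per length it was lower, at 7.76 ± 1.55 CPM per kb against 252 ± 29.1 for Npm2. Oocyte gene clusters were present as families: the 15 genes of the FBXW cluster summed to 1377 to 1758 CPM, 48 PRAME-like genes to 1059 to 1410, 7 OAS1 genes to 734 to 949, 4 oogenesins to 617 to 762 and 8 OBOX genes to 234.4 to 359.8. Cluster members resemble each other, so how the counting split reads among them is uncertain.

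Granulosa transcripts formed the other large share. The 3 granulosa lists hold 55 genes, of which 52 averaged at least 1 CPM and 29 at least 100 CPM, and took 1.62 ± 0.0798% of the counts (SD, n = 6). In whole-follicle RNA, fewer cells of a type and less RNA per cell cannot be told apart. Inha (chr1:75507077-75510366, mm10), the inhibin alpha subunit, measured 3676, 3640, 2702, 3284, 3013 and 2944 CPM in numbers 1 to 6, highest in numbers 1 and 2 and lowest in number 3. Per length it stood at 2176 ± 267 CPM per kb, above its partners Inhbb at 38.8 ± 10.5 and Inhba at 7.39 ± 1.02 (SD, n = 6). Inhbb, the beta B subunit, measured 195, 224, 132, 185, 151 and 102 CPM, a 2.197-fold range. Fst, which encodes the activin-binding protein follistatin, averaged 177 ± 24.3 CPM (SD, n = 6).

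Amh, the hormone of small growing follicles, measured 791, 1031, 659, 804, 906 and 683 CPM in numbers 1 to 6, and its receptor gene Amhr2 measured 248, 283, 231, 276, 323 and 244 CPM. Numbers 2 and 5 were the highest pair for both. Kitl, the ligand of oocyte KIT, averaged 147 ± 14.2 CPM and Igf1, a granulosa growth factor, 320.5 ± 15.2 (SD, n = 6). Fshr, the receptor of the hormone these follicles did not receive, measured 25.9, 21.6, 24.6, 28.9, 31.1 and 18.4 CPM. It was highest in number 5 and lowest in number 6, both of the same set, and its mean was 10.6 ± 1.97 CPM per kb. Cyp19a1, aromatase, stood at 2.00 ± 0.542 CPM per kb (SD, n = 6).

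Granulosa transcription factors varied little, with their 19 genes summing to 2980 to 3333 CPM. Per length the highest was Nr5a2 (LRH-1), a nuclear receptor, at 119 ± 9.08 CPM per kb, beside Foxl2, the keeper of ovarian identity, at 109.7 ± 11.7, Gata4 at 90.9 ± 4.39 and the related receptor Nr5a1 (SF-1) at 24.9 ± 1.501 (SD, n = 6). Sox9 and Dmrt1, factors of the testis pathway, averaged 7.15 and 0.0934 CPM. Gja1 (connexin 43), the channel between granulosa cells, measured 2419, 2172, 1990, 1929, 2094 and 2193 CPM in numbers 1 to 6, and Gja4 (connexin 37), the oocyte's channel, 136, 189, 158, 154, 167 and 138 CPM. Per length they stood at 208 ± 16.9 and 93.3 ± 11.7 CPM per kb (SD, n = 6). Slc18a2, a vesicular monoamine transporter, averaged 1122 ± 77.5 CPM and Serpine2, a protease inhibitor, 905 ± 47.9 (SD, n = 6).

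Steroid synthesis genes were uneven. Hsd3b1, which makes progesterone from pregnenolone, measured 1284, 959.8, 1222, 1017, 1163 and 1409 CPM in numbers 1 to 6, highest in number 6 and lowest in number 2. Its close relatives Hsd3b6 and Hsd3b2 were listed at 0.331 and 0.0401 CPM, and the split of reads among them is uncertain. The enzymes and hormones of theca cells were low: Cyp17a1, which makes androgens, averaged 1.33 CPM, Insl3, a theca hormone, 0.550 and Star, the cholesterol carrier, 8.08. Cyp11a1, the first enzyme of steroid synthesis, measured 9.22, 1.27, 1.05, 0.227, 0.936 and 1.14 CPM. Lhcgr, the luteinizing hormone receptor, measured 7.15, 1.79, 1.01, 1.18, 0.936 and 2.23 CPM. Number 1 was the highest library for both. The hedgehog ligands Dhh and Ihh, signals that recruit theca cells, averaged 58.5 and 41.9 CPM, and their targets Ptch1 and Gli1 259.9 and 38.7 CPM.

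Markers of other cells differed widely. Col1a1, a fibrillar collagen of stroma, measured 1877, 1278, 2020, 1758, 1852 and 2088 CPM in numbers 1 to 6, and Pdgfra, a receptor of mesenchymal cells, 152, 75.1, 178, 138, 105 and 149 CPM. Number 2 was the lowest library for both. Dcn and Lum, small proteoglycans of fibroblasts, averaged 10.4 and 8.91 CPM and Dpt 0.204. Of the smooth muscle genes, Acta2 averaged 283 and Myh11 97.3 CPM. Rgs5, a pericyte gene, measured 4.56, 0.897, 0.0459, 0.318, 0.0936 and 0.364 CPM in numbers 1 to 6, highest in number 1, as Cyp11a1 and Lhcgr were. The 11 endothelial genes summed to 77.3 to 110 CPM, of which Cdh5 made up 59.9 CPM, while Kdr averaged 1.29, Cldn5 0.179 and Tie1 0.0620. The 13 immune genes summed to 1.42 to 6.24 CPM, with Ptprc (CD45) at 0.0789, and the 7 red blood cell genes to 0.0960 to 0.889 CPM. The 11 surface epithelium genes summed to 106 to 132 CPM, mostly the broad epithelial genes Cdh1 at 67.8 and Krt8 at 36.1 CPM, while Upk3b averaged 0.511, Krt19 0.213 and Msln 0.0761 CPM.

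**Figure D1:**
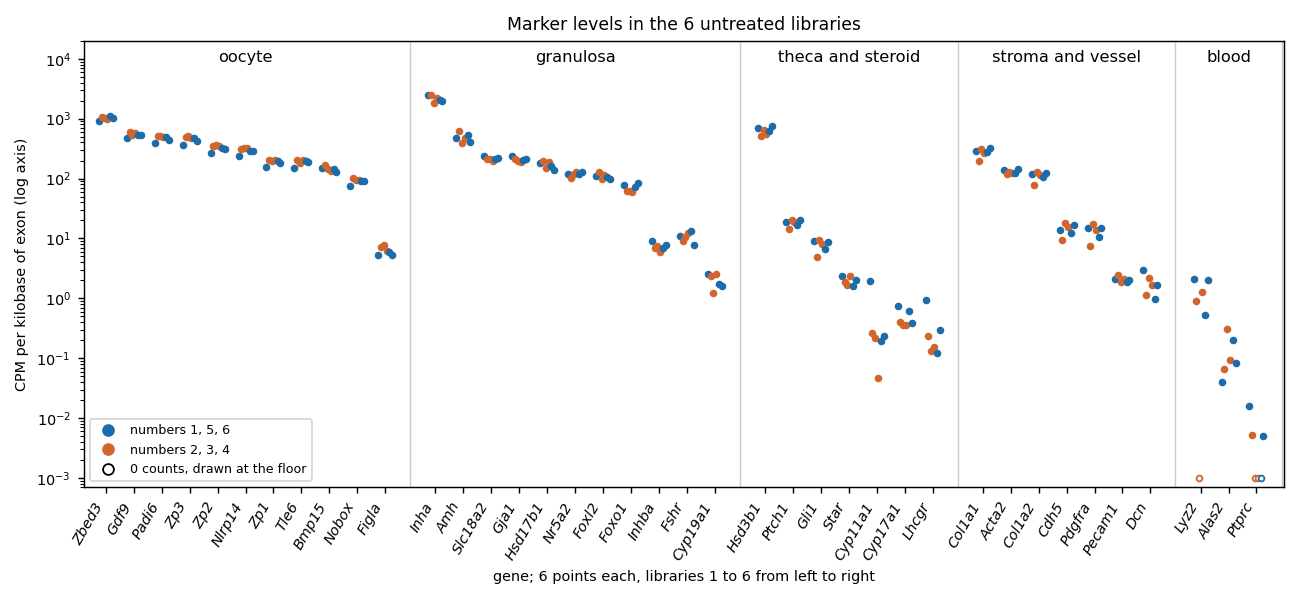
Level of marker genes as CPM per kb of exon on a log axis, 1 point per untreated library, numbers 1 to 6 from left to right, blue for numbers 1, 5 and 6 and orange for 2, 3 and 4, with open points for 0 counts drawn at the floor. Inha leads the granulosa genes at a mean of 2176 CPM per kb and Zbed3 the oocyte genes at 1023, and number 1 lies above the others for Cyp11a1 and Lhcgr.

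All 23 cell cycle genes averaged at least 10 CPM, and they summed to 2697 to 3019 CPM. Ccnd2, the D cyclin of granulosa cells, averaged 547 ± 22.9 CPM, and the proliferation genes Mki67 and Top2a 398 ± 46.3 and 247 ± 22.2 (SD, n = 6). The 10 ovulation and luteal genes summed to 42.7 to 56.6 CPM, with Adamts1, a matrix protease, at 20.4 and Prlr, the prolactin receptor, at 19.98 CPM. Ptgs2, prostaglandin synthase, averaged 1.79 CPM, Has2, hyaluronan synthase, 0.730 and Ptx3, a cumulus matrix protein, 0.148. Col4a1, a basement membrane collagen, measured 1530, 1029, 1488, 1425, 1471 and 1549 CPM in numbers 1 to 6, and Lama1, a laminin alpha chain, 687, 559.9, 872, 809, 895 and 847 CPM. Number 2 was the lowest library for both. Other sums were steadier, with 4297 to 4565 CPM for 11 heat shock genes, 602 to 639.6 CPM for the 17 clock genes found and 2648 to 2909 CPM for 20 nuclear genes of the respiratory chain.

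Several pathways outside cell identity were also measured. Of the immediate early genes, Egr1 measured 156.2, 109, 106, 87.7, 68.7 and 79.9 CPM in numbers 1 to 6 and Fosl2, an AP-1 subunit, averaged 221 ± 14.5 CPM, while Fos averaged 6.998. Cholesterol synthesis was expressed, with 23 of 25 genes at 10 CPM or more and Hmgcs1, an early enzyme, at 258 ± 17.02 CPM (SD, n = 6). Clu, clusterin, averaged 1626 ± 115 CPM (SD, n = 6), while Bbc3 and Pmaip1, death genes of the p53 pathway, averaged 5.81 and 0.774 CPM. Of 13 interferon response genes, 5 reached 10 CPM, and Isg15 averaged 1.08. The nuclear-retained RNAs summed to 1076, 829, 1547, 1181, 1008 and 1181 CPM in numbers 1 to 6, lowest in number 2 and highest in number 3. Xist, the RNA that coats the inactive X chromosome, ranged from 478 to 906 CPM and Malat1 from 233.7 to 495 CPM.

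By CPM, which favours long transcripts, the sequence with the highest mean was Rn18s-rs5, an 18S ribosomal RNA, at 4777, 13030, 6044, 20410, 18400 and 11720 CPM in numbers 1 to 6. In numbers 1 and 3 it was below mt-Co1. The libraries were made with an mRNA kit, so these counts do not give the level of ribosomal RNA in the follicles. The next highest means were those of mt-Co1, a mitochondrial complex IV subunit, at 6861 ± 898 CPM, Eef1a1, a translation elongation factor, at 5894 ± 404, Inha at 3210 ± 394 and mt-Nd1, a complex I subunit, at 3093 ± 305 (SD, n = 6). Dag1, dystroglycan, averaged 3033 CPM, Tenm4, a teneurin, 2999 and Eef2, another elongation factor, 2684, and Zbed3 and Gja1 were also among the first 12. Gm28661, at 2454 CPM, is annotated as an unprocessed pseudogene and resembles mitochondrial genes, so the split of reads with the mitochondrial genome is uncertain. The 10 highest genes took 3.88 to 5.28% of a library's counts, the 100 highest 13.9 to 14.9% and the 1000 highest 42.8 to 43.5%.

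Per length, which Rn18s-rs5 lacks in the annotation, genes of the mitochondrial genome and their copies led, with mt-Co1 first at 4441 ± 581 CPM per kb, and Eef1a1 at 2364 ± 162 and Inha at 2176 ± 267 were the highest nuclear protein-coding genes (SD, n = 6). Long genes fell in this order, such as Tenm4 at 143 CPM per kb over 21021 bases of exon. By family, 84 cytosolic ribosomal protein genes took 2.60 ± 0.181% of the counts, the mitochondrial genome 1.95 ± 0.254%, 44 collagens 0.999 ± 0.152% and the HSP90 chaperones 0.488 ± 0.0113% (SD, n = 6). Pseudogenes took 2.42 ± 0.175% and long non-coding RNA genes 1.08 ± 0.0575%.

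Most genes differed little between libraries. Over the 10708 genes with a mean of at least 10 CPM, the median ratio of the highest to the lowest library was 1.22. A ratio of at least 2 was reached by 221 genes (2.06%), of which 175 were protein-coding and 32 pseudogenes. Number 2 was the highest library for 68 of them and the lowest for 81, and without number 2 the count was 117 of 10692. No gene of the oocyte lists was among the 221, but 2 with PRAME-like names and 1 with an OBOX name were. Of these, Pramel27 ranged from 3.44 to 22.5 CPM. The granulosa lists had 3 (Inhbb, Bmp2 and Tcf21), the stroma list 5 (Col3a1, Dcn, Pdgfra, Pdgfrb and Tcf21), and the glycolysis and hypoxia lists 20 of their 30 members at that level.

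Glycolysis and hypoxia genes were the largest variable group among the lists. Vegfa, a vascular growth factor induced by low oxygen, measured 142, 242, 88.8, 151, 33.3 and 40.5 CPM in numbers 1 to 6. Slc16a3 (MCT4), a lactate exporter, measured 58.0, 120.1, 35.6, 76.0, 12.03 and 16.6 CPM, a 9.98-fold range. Both were highest in number 2, then in numbers 4, 1 and 3, and lowest in numbers 5 and 6. Ldha, lactate dehydrogenase A, measured 454, 729, 400.2, 549, 209 and 235 CPM. Pgk1, phosphoglycerate kinase, measured 197, 314, 165, 235, 78.6 and 83.5 CPM, and Bnip3, a mitophagy receptor, 57.9, 93.9, 40.4, 66.5, 19.7 and 20.4 CPM. All of these genes ranked the libraries 2, 4, 1, 3, 6, 5. Pkm, pyruvate kinase, had a smaller, 2.04-fold range, and Pfkm, muscle phosphofructokinase, ranged only from 68.6 to 85.3 CPM. Of the 19 glycolysis genes, 16 were highest in number 2 and 16 lowest in number 5 or 6. Of the 17 hypoxia genes found, 14 were highest in number 2 and 15 lowest in number 5 or 6. The glycolysis list summed to 4319, 6542, 4016, 5281, 2676 and 2719 CPM in numbers 1 to 6. Eno1, enolase, shares reads with Eno1b, so the level of each is uncertain.

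Hypoxia-inducible factors bind the core ACGTG. The promoters of Ldha (chr7:46845554-46845783, plus strand), Pgk1 (chrX:106186850-106187079, plus strand) and Bnip3 (chr7:138909527-138909756, minus strand) are shown as members that moved together and hold the core. They are printed 5′ to 3′ over the same stretch from RefSeq on GRCm38.p6, with ACGTG on either strand in capitals.
Ldha: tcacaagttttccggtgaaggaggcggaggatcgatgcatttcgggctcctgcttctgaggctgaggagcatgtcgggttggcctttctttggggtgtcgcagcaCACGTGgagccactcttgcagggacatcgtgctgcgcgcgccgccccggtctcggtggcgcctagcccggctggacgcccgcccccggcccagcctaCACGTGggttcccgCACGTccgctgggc
Pgk1: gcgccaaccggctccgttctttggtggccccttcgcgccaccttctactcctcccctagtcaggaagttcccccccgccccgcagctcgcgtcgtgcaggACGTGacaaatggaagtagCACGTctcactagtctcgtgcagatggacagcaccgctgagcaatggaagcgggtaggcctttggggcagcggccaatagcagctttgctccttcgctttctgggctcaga
Bnip3: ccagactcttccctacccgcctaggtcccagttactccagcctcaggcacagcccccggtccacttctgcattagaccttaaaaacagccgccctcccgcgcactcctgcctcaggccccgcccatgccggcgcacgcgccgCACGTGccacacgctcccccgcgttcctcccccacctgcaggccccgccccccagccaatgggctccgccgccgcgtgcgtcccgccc
CACGTG carries the core on both strands and counts as 2 overlapping matches, so Ldha held 5 matches, Pgk1 2 and Bnip3 2. Of the 33 glycolysis and hypoxia genes with a RefSeq window of 250 bases before the start, 16 held the core (48.5%). It was held by 16.6% of all 27025 windows and by 22.6% of the 8370 windows of genes with a mean of at least 10 CPM. The windows of Vegfa, Eno1 and Pdk1, which were also highest in number 2 and lowest in number 5 or 6, held none of these letters. A match is a description of the sequence and shows no binding, and the part of the core in these levels was not tested.

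**Figure D2:**
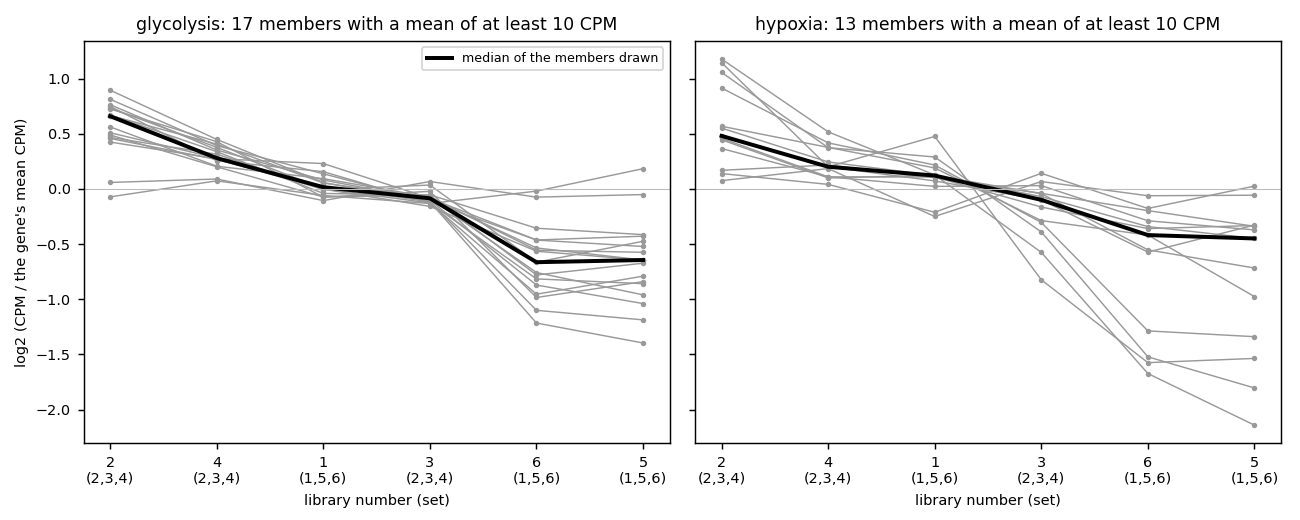
log2 ratio of CPM to the gene's mean over the 6 untreated libraries, 1 grey line per gene for 17 glycolysis members (left) and 13 hypoxia members (right) with a mean of at least 10 CPM, and their median in black. The libraries are ordered 2, 4, 1, 3, 6, 5 after their values were seen, and most lines run from above 0 in number 2 to below 0 in numbers 6 and 5.

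Several of the other variable sequences have near-identical copies. The largest SDs of log2 CPM belonged to mt-Co3, at 0.102, 132, 343, 83.8, 0.103 and 89.5 CPM in numbers 1 to 6, and mt-Co2, at 0, 11.5, 53.5, 0, 22.1 and 0 CPM, while mt-Co1 ranged only from 5188 to 7867 CPM. Rps2, a ribosomal protein, measured 5.45, 46.1, 12.3, 102, 102 and 48.5 CPM, and Kpna2, a nuclear import factor, 8.47, 15.6, 26.3, 44.4, 31.0 and 1.65 CPM. The ribosomal protein pseudogenes Rpl17-ps5, Rpsa-ps10 and Rpl15-ps6 were also among the 25 most variable, and the values of all these are uncertain. Lars2, a mitochondrial leucyl-tRNA synthetase, measured 263, 565, 320.1, 767, 652 and 402 CPM, and Rn7sk, the 7SK small nuclear RNA, 7.44, 20.8, 9.04, 31.0, 21.9 and 18.4 CPM. Both ranked the libraries as the ribosomal RNA Rn18s-rs5 did, from number 4 through 5, 2, 6 and 3 to 1. The cause of this shared order was not tested.

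Matrix genes were low in number 2. The collagens summed to 10620, 7085, 11100, 10010, 9979 and 11240 CPM in numbers 1 to 6. Sfrp1, a secreted WNT antagonist, measured 112, 47.6, 132, 93.7, 81.1 and 137 CPM, and Sparcl1, a matrix protein, 154, 85.5, 304, 215, 155 and 246 CPM. The stroma list summed to 5248, 3408, 5506, 4833, 4654 and 5518 CPM. In each of these, number 2 was the lowest library. Levels also moved with gene length. Protein-coding genes with a mean of at least 10 CPM were put into 5 groups by exon length. In the group with the longest exons (median 10521 bases), the median log2 deviation from a gene's mean was -0.08 in number 2 and 0.06 in number 6. In the shortest group (median 2012 bases), it was 0.09 and -0.07. The part of gene length in the matrix difference was not tested.

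**Figure D3:**
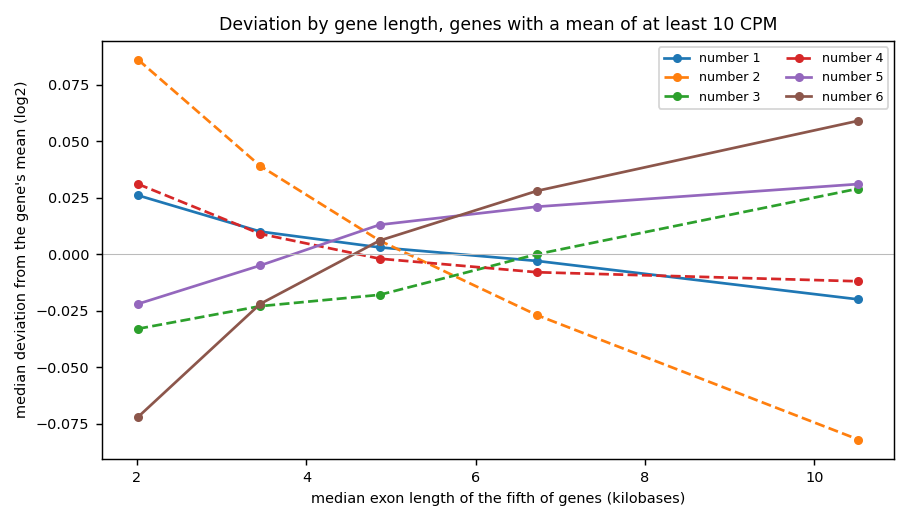
Median log2 deviation of protein-coding genes from their mean over the 6 untreated libraries, against median exon length in kilobases. Protein-coding genes with a mean of at least 10 CPM were put into 5 equal groups by exon length. Each library is 1 line, dashed for numbers 2, 3 and 4. The line of number 2 falls from 0.09 to -0.08, that of number 6 rises from -0.07 to 0.06, and the other libraries lie between them at both ends.

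Both untreated sets served as controls, each for its own dose, so they were compared with each other (numbers 2, 3 and 4 minus 1, 5 and 6). No gene of 17285 passed an adjusted p of 0.05 (0%) in edgeR's quasi-likelihood test with Benjamini-Hochberg adjustment, where the smallest adjusted p was 0.971. An unadjusted p under 0.05 was given to 853 genes (4.93%), 490 higher and 363 lower in numbers 2, 3 and 4. DESeq2 called 8 genes, limma voom 0, and edgeR without its filter on low counts 109 of 31953. For 13683 genes (79.2%) the 95% interval of the difference lay within 2-fold in either direction. The values of the sets did not overlap for 1902 genes (11%).

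The oocyte lists lay slightly higher in numbers 2, 3 and 4, with no member past the adjusted threshold. Of 97 members that passed the count filter, 89 had a difference above 0. An unadjusted p under 0.05 was given to 36 (37.1%), all on the higher side, against 4.93% of all genes. The members moved together, 69 being highest in number 2 and 41 lowest in number 1, so they are not independent results. Their median log2 difference was 0.17, against 0.0024 over all genes tested. The sets did not overlap for 42 members (43.3%), against 11%. The oocyte lists summed to 21680, 26470, 24920, 24620, 24480 and 23610 CPM in numbers 1 to 6, lowest in number 1 and highest in number 2. Without number 2 the median was 0.10 and 19 members had such a p, without number 6 22, and without number 1 26. Short genes in general also moved between libraries. In the shortest of the 5 length groups, the median log2 deviation was 0.03, 0.09, -0.03, 0.03, -0.02 and -0.07 in numbers 1 to 6. The part of gene length in the oocyte difference was not tested.

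Single oocyte genes show the size of this difference. Zp2 differed by 0.24 ± 0.09, Nlrp14 by 0.23 ± 0.09, Gdf9 by 0.15 ± 0.08 and Zbed3 by 0.01 ± 0.09 (log2 ± SE). The sets did not overlap for Zp2, Nlrp14 and Gdf9 and overlapped for Zbed3. In the FBXW cluster, 13 of 15 genes had an unadjusted p under 0.05, all higher, against 4.93% of all genes, with a median log2 difference of 0.23. This was the largest such share among the oocyte families, but it was not particular to the cluster. The count was 4 of 5 for the OAS1 family, 3 of 4 for the OBOX family and 2 of 3 for the zona pellucida genes. It was 7 of 13 for the NLRP family, 2 of 4 for the oogenesins, 4 of 22 for the PRAME-like family and 0 of 6 for the TCL1 family. Cluster members resemble each other, so their counts are not independent results.

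The granulosa lists had a median log2 difference of -0.05. Of 53 members tested, 3 had an unadjusted p under 0.05 (Foxo1, Kitl and Dsp), all lower in numbers 2, 3 and 4. This share of 5.66% is near the 4.93% of all genes. The count was 8 without number 5, in both directions, and 5 without number 3. Inha differed by 0.00 ± 0.13 (log2 ± SE), with a 95% interval from -0.28 to 0.28, Amh by 0.07 ± 0.17, from -0.34 to 0.48, and Fshr by 0.00 ± 0.19, from -0.45 to 0.44. Foxo1, a forkhead factor of growing granulosa cells, measured 673, 624 and 725 CPM in numbers 1, 5 and 6 and 544, 533 and 519 CPM in numbers 2, 3 and 4. Its sets did not overlap. Its difference was -0.34 ± 0.07 (log2 ± SE), with an adjusted p of 0.971 in edgeR's quasi-likelihood test and 0.0110 in DESeq2.

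The glycolysis genes had a median log2 difference of 0.67 and the hypoxia genes of 0.38. Of 19 glycolysis genes, 8 had an unadjusted p under 0.05, all higher in numbers 2, 3 and 4, against 4.93% of all genes. None passed the adjusted threshold. The members moved together between libraries, so they are not independent results. Vegfa differed by 1.16 ± 0.78 and Ldha by 0.90 ± 0.41 (log2 ± SE). Number 1 lay above number 3 for both, so their sets overlapped. The count of 8 became 16 without number 1, 4 without number 2, 10 without number 3, 3 without number 4, 3 without number 5 and 3 without number 6. It was 1 with all 18 libraries in the fit and 17 with limma voom.

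A few genes outside the lists were singled out after their values were seen. Epm2a (chr10:11343404-11459644, mm10), which encodes the glycogen phosphatase laforin, measured 3.89, 4.49 and 3.74 CPM in numbers 1, 5 and 6 and 8.16, 7.38 and 9.66 CPM in numbers 2, 3 and 4. Its difference was 1.06 ± 0.18 (log2 ± SE), with an adjusted p of 0.971 in edgeR's quasi-likelihood test and 0.00778 in DESeq2. Rgs11 (chr17:26202951-26211324, mm10), a regulator of G protein signalling, measured 86.0, 88.4 and 67.6 against 109.9, 115 and 122 CPM, a difference of 0.52 ± 0.10. Its adjusted p was 0.971 in edgeR's quasi-likelihood test and 0.00778 in DESeq2. Zbtb8b, a zinc finger gene, measured 61.4, 59.1 and 61.6 against 169.7, 95.7 and 107 CPM. With all 6 libraries, its adjusted p was 0.971 in edgeR's quasi-likelihood test and 0.119 in DESeq2. The sets of these 3 genes did not overlap, and Zbtb8b was called by edgeR once number 2, its highest library, was left out (adjusted p = 0.0168).

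**Figure D4:**
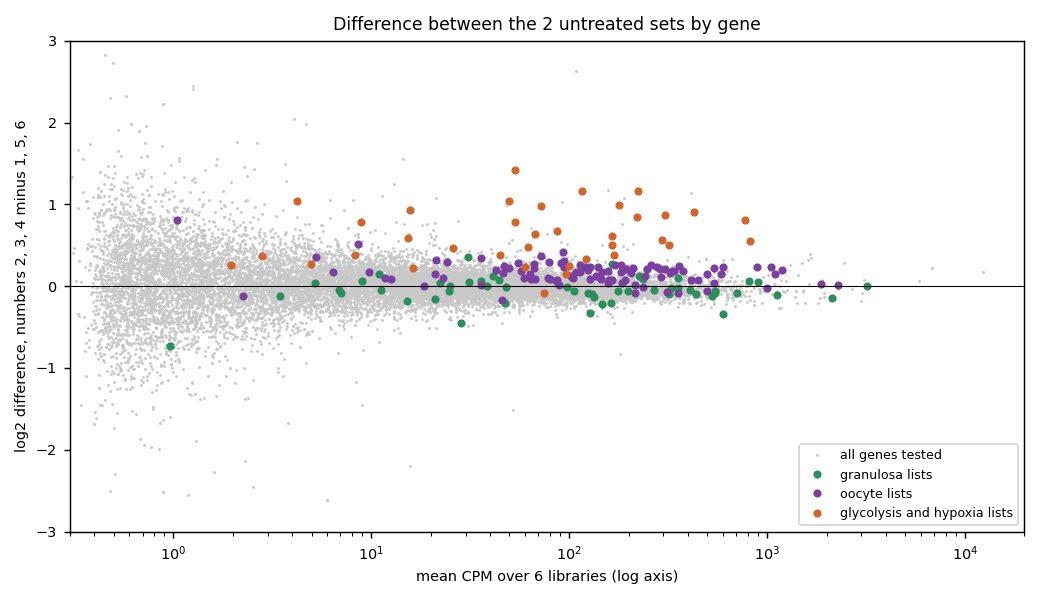
log2 difference between the untreated sets (numbers 2, 3 and 4 minus 1, 5 and 6) against mean CPM over the 6 libraries on a log axis, 1 point per gene tested, with list members in colour; 5 genes lie outside the drawn range. Oocyte members lie mostly above 0 with a median of 0.17, granulosa members have a median of -0.05, and no gene passed an adjusted p of 0.05.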

How the data were processed

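RNA from 18 libraries, 3 in each of 6 groups, was sequenced on 4 lanes each (72 deposited samples), from 50 ng of RNA with a NuGEN Universal Plus mRNA kit, per the labels' protocols. The authors deposited a table of RSEM expected counts with 1 column for each library, per the file headers; 33.9% of non-zero values were not whole and were rounded here. Per the submitters' processing notes, the tools were STAR 2.7, bcl2fastq and FastQC and the build was mm10. The RSEM version, the annotation and the use of strand are not given in the sources used here, so overlapping antisense genes cannot be told apart. Of 56691 identifiers, 52073 matched GENCODE M21, which gave lengths and positions.

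The 6 untreated libraries were fitted with edgeR 4.0.16 in R 4.3.3 (TMM, filterByExpr with a minimum count of 10, robust quasi-likelihood test, Benjamini-Hochberg adjustment), and CPM, SDs and ranges were computed in Python 3.11.15. The fit was tested on simulated data. DESeq2 1.42.0, limma 3.58.1 voom, other scalings and filters, all 18 libraries, and each library left out were alternatives. Log2 CPM used a prior count of 2. Each of 6 libraries gave over 20 M counts, so 3 counts over all of them correspond to 0.0232 CPM. Named genes were the 25 highest by CPM and per kilobase, the 25 most variable, and for each list the 4 highest members and defining markers; the rule for genes called between the sets found none. Other genes were named after their values were seen. The members and lists were chosen with earlier results of these data known.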

Additional observations from a re-analysis of the deposited data

Results flagged for a closer look

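Of 163 genes, lists and families checked over the 6 untreated libraries, 10 (6.13%) had 1 library farther from the others than Dixon's 95% critical value for 6 samples allows, and chance puts about 1 in 20 over it. Genes, lists and families overlap, as Dnmt1 is in the maternal effect list and Col4a1 is a collagen. The 10 are therefore not independent results. Number 1 stood apart for 6 of them. It was low for Tle6 at 456.9 CPM against 571.7 to 635.8 in the others, for Dnmt1 at 1617 CPM against 1855 to 1980, and for the summed list of oocyte maternal effect and RNA regulation at 5299 CPM against 5890 to 6199. It was high for Cyp11a1, the first enzyme of steroid synthesis, at 9.218 CPM against 0.2269 to 1.274, for Lhcgr, the luteinizing hormone receptor, at 7.154 CPM against 0.9357 to 2.232, and for Rgs5, a pericyte gene, at 4.561 CPM against 0.04586 to 0.8966. Rgs5 was among the genes checked because its values had been seen. Number 2 stood apart for the other 4. It was low for Col4a1 at 1029 CPM against 1425 to 1549, for the summed basement membrane and matrix list at 5273 CPM against 7109 to 7627, and for the collagens at 7085 CPM against 9979 to 11240. It was high for the TCL1 family of oocyte genes at 266.4 CPM against 211.9 to 222.7.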

How the results depend on the processing

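The count of genes called between the untreated sets, 0, was also 0 with RLE or upper quartile scaling, a filter of 1 CPM in 3 libraries, limma voom, all 18 libraries in the fit and no robust estimation. It was 109 without a filter on low counts, of which 89 were among the genes of the filtered fit, and 8 with DESeq2, and it ranged from 0 to 2 with 1 library left out. The cause was not tested. The genes singled out between the sets kept their direction in every setting run. They were chosen from these same libraries after their values were seen, so this is not independent support. Where the sets of a gene do not overlap, leaving out 1 library cannot reverse its direction. As sums of values per kilobase, the oocyte lists held 3.307% rather than 2.43%, the granulosa lists 1.724% rather than 1.62%, the theca list 0.2854% rather than 0.224%, the stroma list 0.2232% rather than 0.485% and the basement membrane list 0.2859% rather than 0.701%, since long genes count for less. Genes with a 2-fold range numbered 1999 of 15255 (13.1%) at a mean of at least 1 CPM and 89 of 7204 (1.24%) at 30 CPM. They numbered 117 to 206 with 1 library left out. The counts of oocyte and glycolysis members under the alternatives were added after seeing the data, and the oocyte count ranged from 19 to 38 with 1 library left out. No paired analysis was possible because the sets compared share no replicate number. Genes below 10 CPM had wider intervals: the median half-width was 0.278 on the log2 scale over all genes tested and 0.196 at 10 CPM or more.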

Other observations

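Vegfa was also measured in the treated libraries that carry the same numbers, with CPM scaled over all 18 libraries. In number 5 it stood at 33.4 CPM untreated, 44.5 with FSH21 and 60.5 with FSH24 at 1 ng/ml, and in number 6 at 40.5, 33.4 and 129 CPM. In number 1 it stood at 142, 404 and 229 CPM, and each of these exceeded its counterpart in numbers 5 and 6. In number 2 the untreated library and those given FSH21 and FSH24 at 10 ng/ml stood at 239.9, 404 and 299 CPM, in number 3 at 88.8, 532 and 505 CPM, and in number 4 at 150.3, 585 and 119.7 CPM. What the libraries of a number share is not stated in the labels, and its part in these levels was not tested.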
